A study of Homo sapiens with 8 samples.

Results

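Olfactory receptor guides are sgRNAs whose target gene carries an olfactory receptor symbol, and they were set against non-targeting guides, which match EGFP, LacZ or luciferase and have no site in the human genome. They were chosen by gene symbol alone, which gave 1296 of the 71090 guides of the library, aimed at 338 receptor genes. Of these genes, 310 had 4 guides, 9 had 3, 10 had 2 and 9 had 1. The non-targeting set had 142 guides, of which 96 matched LacZ, 24 luciferase and 22 EGFP. After guides in the lowest 5% by mean read count were left out, 1235 olfactory receptor guides against 337 genes and 138 non-targeting guides remained, and OR2T12 had no guide left.

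All libraries came from PC9, an EGFR-mutant non-small cell lung cancer line, that expressed the Cas9 nuclease and carried the genome-wide TKOv3 knockout library. The 4 groups had 2 libraries each and were T0, taken when drug was added, and cells after a further 72 h without drug (untreated), with erlotinib at 10 µM or with osimertinib at 0.1 µM, which both inhibit the EGFR kinase. Per the methods, the cultures without drug were split a day into the 72 h, dead cells were not collected, and puromycin selection came before T0, so cells that were lost during selection are not seen. The culture history of the replicates is not stated, so a p-value reflects the spread among these libraries alone, which may be technical. The methods give a number of infected cells for each treatment condition, without saying whether the conditions shared an infection. A difference between infections could thus not be told apart from a difference between drug and untreated. Libraries held 32096281 to 39200466 reads, the median olfactory receptor guide had 511.5 to 622.5 reads in a library, and the median non-targeting guide had 528 to 648.5.

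Olfactory receptors are G protein-coupled receptors that detect odorants in sensory neurons of the nose, and each such neuron uses a single receptor gene. Most are not expressed outside the nose, although roles in tumor cells have been described for single receptors, and a guide against one is commonly used as a control that cuts DNA without removing a needed protein. Cas9 leaves a double-strand break that is mostly closed by non-homologous end joining, and unrepaired or repeated breaks can slow or kill a cell. A non-targeting guide loads Cas9 but gives it no site to cut. Receptor genes lie in clusters of similar copies, and class I (families 51, 52, 55 and 56, related to fish receptors) is set apart from class II (the rest) by sequence.

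Cells with an olfactory receptor guide became slightly rarer than cells with a non-targeting guide in each of the 6 libraries collected at 72 h. Abundance is given as log2 of CPM plus 1 (CPM being counts scaled to library size), relative to the mean of the T0 libraries, and as the median over olfactory receptor guides minus the median over non-targeting guides. The difference was -0.11 in both untreated libraries, -0.14 and -0.11 under osimertinib, and -0.13 and -0.11 under erlotinib, and the T0 libraries lay within 0.00546 of their mean. The 72 h libraries did not overlap with T0. At 72 h, erlotinib overlapped with untreated and with osimertinib. Both osimertinib libraries lay below both untreated libraries, by only 0.00039 in the closest pair. Over all 72 h libraries the difference from T0 was -0.12, with single pairs of libraries between -0.14 and -0.10, at an exact permutation p of 0.0714 (two-sided, 6 against 2 libraries), which is the smallest that these numbers of libraries allow. Each group of 2 against T0 gave an exact permutation p of 0.333, the smallest possible for 2 against 2.

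Most olfactory receptor guides lay on the low side, and the distributions overlapped. In the 72 h libraries, between 74.2% and 81.5% of olfactory receptor guides lay below the non-targeting median. Of guides against other genes, between 76.9% and 82.3% did, so the low side was not particular to the receptors. The SD between olfactory receptor guides was 0.165 to 0.192 at 72 h against 0.121 to 0.153 for non-targeting guides. In the fit across all guides, the log2 fold change (L2FC) from T0 to untreated was -0.12 at the median of the olfactory receptor guides relative to the non-targeting median, so that the ratio of their abundance to that of non-targeting guides fell by 8.17%. It was -0.13 from T0 to erlotinib and -0.11 from T0 to osimertinib. The order of the groups depended on the measure, since the library means were -0.109 for untreated, -0.12 for erlotinib and -0.124 for osimertinib. Taken as a mean, the differences were -0.14 ± 0.01 for untreated, -0.14 ± 0.01 for erlotinib and -0.14 ± 0.01 for osimertinib (SE from the spread between 1235 and 138 guides, which share libraries). Below the 5th percentile of the non-targeting guides lay 36.8% of the olfactory receptor guides in untreated against T0, 35.0% in erlotinib against T0 and 32.0% in osimertinib against T0, and above the 95th percentile lay 3.00%, 1.54% and 1.86%. The share of other guides beyond these percentiles was not taken.

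Guides against other genes fell a little further. Their median relative to the non-targeting guides was -0.18 in untreated against T0, -0.15 with erlotinib and -0.14 with osimertinib, so that the olfactory receptor median came to 70.1%, 86.7% and 78.2% of it. In single libraries at 72 h, the median of the other guides was between -0.16 and -0.13. On the gene level, where the value of a gene is the median L2FC of its guides minus the non-targeting median, the median over 17762 targeted genes was -0.17, -0.14 and -0.14 in the same order, and 214, 184 and 181 of the 326 olfactory receptor genes with at least 2 guides lay above it. Olfactory receptors thus sat on the upper side of all targeted genes without drug and closer to the middle with drug. Cytosolic ribosomal proteins, which every growing cell needs, had medians of -0.79, -0.60 and -0.76 over 53 genes, and subunits of the proteasome, the main protease complex of the cell, had -0.52, -0.56 and -0.70 over 39 genes. The shift of the olfactory receptors was small beside either.

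Single guides were tested with edgeR's quasi-likelihood test and Benjamini-Hochberg adjustment over all guides, with library sizes set on the non-targeting guides. From T0 to untreated, 154 of 1235 olfactory receptor guides (12.5%) fell and 1 rose, where 20.1% of all guides fell and 0.0814% rose. With erlotinib against T0, 170 fell (13.8%) against 19.2% of all guides, and with osimertinib against T0, 197 fell (15.9%) against 23.5%. Guides that rose were 0.206% of all guides with erlotinib and 0.808% with osimertinib. Among olfactory receptors, 8 rose with osimertinib and none with erlotinib, where 5 passed at an unadjusted p of 0.05 and DESeq2 called 8 with its own scaling and 0 when scaled on the non-targeting guides. At most 1 of the 138 non-targeting guides was called lower in any of these comparisons. Since library sizes were set on these same guides, they lie near 0 by construction and are not a separate control.

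The choice of scaling sets these counts. With TMM scaling over all guides, the median of all guides moved up by enough to bring it to 0.01 in each comparison with T0, from -0.16, -0.16 and -0.15, and the non-targeting guides then stood at 0.18, 0.15 and 0.15. On that scale 12 olfactory receptor guides were called lower and 24 higher from T0 to untreated, 25 and 12 with erlotinib, and 44 and 51 with osimertinib. Of the non-targeting guides, 8, 6 and 20 were then called higher in the same order, and 0 lower. The distance between olfactory receptor and non-targeting guides was -0.12, -0.13 and -0.11 under both scalings. A scaling moves all guides of a comparison by nearly the same amount, so it could not change this distance. The direction of an olfactory receptor call is therefore a direction relative to cells that were not cut.

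Receptor genes were also tested on reads summed over their guides, with edgeR's quasi-likelihood test and adjustment over 17798 genes and non-targeting groups. From T0 to untreated, 122 of 326 olfactory receptor genes (37.4%) fell, where 52.8% of all genes fell and 0.0674% rose. With erlotinib against T0, 159 fell (48.8%) where 50.7% of all genes fell and 0.607% rose, and with osimertinib against T0, 145 fell (44.5%) where 50.5% fell and 1.77% rose. The gene value was below 0 for 303, 297 and 286 of the 326 genes, and 177, 159 and 145 genes had every guide below 0. Of single receptor guides, 83.16%, 79.92% and 77.25% lay below 0, beside 86.49%, 81.14% and 77.4% of guides against other genes. No olfactory receptor gene rose from T0 to untreated by edgeR, with 1 at an unadjusted p of 0.05, 22 by DESeq2 with its own scaling and 0 by DESeq2 scaled on the non-targeting guides. Against T0, 1 receptor gene rose with erlotinib (0.307%) and 3 with osimertinib (0.92%) by edgeR. Leaving out T0 replicate 2 lowered the genes that fell to 66, 86 and 92 in the same order, and leaving out erlotinib replicate 1 lowered those with erlotinib to 85. No other left-out library moved these counts by more than 1.5 times.

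The lowest receptor gene from T0 to untreated was OR4B1, whose value was -0.47 ± 0.04 (SD between guides, n = 4), and all of its 4 guides were between -0.50 and -0.39. Guide TKOV3_42314 of OR4B1 had 584 and 700 reads at T0, 477 and 502 in untreated, 506 and 477 under osimertinib, and 438 and 411 under erlotinib. In single libraries the median of the OR4B1 guides relative to non-targeting guides was -0.35 and -0.47 in untreated, -0.45 and -0.57 under osimertinib, and -0.39 and -0.35 under erlotinib. All 72 h libraries were thus low for OR4B1, and the edgeR gene test from T0 to untreated gave an adjusted p of 1.13e-07.

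The next lowest were OR2AG2 at -0.41 ± 0.25 (n = 3) and OR7G3 at -0.39 ± 0.22 (n = 4), then OR52N5 at -0.37 ± 0.09 (n = 4). OR6K6 stood at -0.36 ± 0.19 (n = 3), OR7E24 at -0.36 ± 0.23 (n = 4), OR13A1 at -0.35 ± 0.11 (n = 4) and OR7G2 at -0.35 ± 0.26 (n = 3). All 8 genes passed the edgeR gene test, with adjusted p up to 0.00534. OR7G3, OR7G2 and OR7E24 belong to the same family and lie in the same cluster on chromosome 19. The median of the OR7G3 guides was -0.38 and -0.31 in untreated, -0.72 and -0.40 under osimertinib, and -0.26 and -0.17 under erlotinib, so its osimertinib libraries were the lowest.

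At the other end, OR5M8 stood at 0.13 ± 0.12 (n = 4), OR14K1 at 0.12 ± 0.16 (n = 4), OR2T4 at 0.12 ± 0.13 (n = 4) and OR5H14 at 0.09 ± 0.09 (n = 3), and none of these 4 passed the edgeR gene test (adjusted p 0.055 or more). The extremes were partly extremes of the libraries that placed them there. The 8 receptor genes that were lowest in replicate 1 of untreated (each replicate set against the T0 library of the same number) had a median of -0.41 in that replicate and -0.19 in replicate 2, where the median of all receptor genes was -0.11. The 8 highest had 0.09 in replicate 1 and -0.01 in replicate 2.

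Single guides within a gene differed more than genes did. Of the variance between olfactory receptor guides, 14.0% lay between genes in untreated against T0, 16.0% in erlotinib against T0 and 24.8% in osimertinib against T0 (313 genes with at least 3 guides), and the SD within a gene was 0.154 to 0.159. The lowest single guide from T0 to untreated was TKOV3_42680 against OR5AP2, with 524 and 551 reads at T0, 295 and 381 in untreated, 365 and 352 under osimertinib, and 307 and 298 under erlotinib. Its L2FC was -0.78 at an adjusted p of 6.37e-06 (edgeR), while the other 3 guides of OR5AP2 had -0.12 to 0.30, so the loss was seen with 1 guide of the gene. The highest guide, TKOV3_42665 against OR5A2, had 42 and 46 reads at T0 and 66 and 71 in untreated, at an L2FC of 0.53 with an adjusted p of 0.236 (edgeR).

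Where the gene lies in the genome went with its value in part. RefSeq (GRCh38.p14) places all 337 genes, 1 of them through an older name, and 311 of them fell into 17 clusters of at least 5 receptor genes less than 1000000 bases apart. The clusters were drawn after the values had been seen, so they are described and not tested. Of the variance between guides in clusters, 14.1% lay between clusters in untreated, 14.6% in erlotinib and 22.9% in osimertinib, each against T0. The SD within a cluster was 0.156, 0.159 and 0.163. From T0 to untreated, cluster medians ran from -0.35 for OR4B1 to OR4A47 on chromosome 11 (7 genes, 25 guides) to -0.04 for OR6X1 to OR8A1 on the same chromosome (18 genes, 72 guides). All 7 genes of the first cluster fell, with 6 falling from T0 to erlotinib and 7 from T0 to osimertinib, where 52.8%, 50.7% and 50.5% of all genes fell. None of the 18 genes of the second was called lower by edgeR in any of the comparisons with T0, DESeq2 also called 0 of them, and at an unadjusted p of 0.05 edgeR gave 2 genes with erlotinib and 0 in the other comparisons. By edgeR, 1 of the 18 was called higher with erlotinib and 2 with osimertinib against T0, where 0.607% and 1.77% of all genes rose.

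The 2 clusters of chromosome 19 were the next lowest, at -0.26 for OR2Z1 to OR7D4 (8 genes) and -0.19 for OR7C1 to OR10H4 (11 genes). In single libraries the cluster from OR4B1 to OR4A47 was at -0.32 and -0.35 in untreated, -0.33 in both osimertinib libraries, and -0.33 and -0.31 under erlotinib. The cluster from OR6X1 to OR8A1 was at -0.01 and -0.03 in untreated, 0.00 and 0.04 under osimertinib, and -0.03 and -0.01 under erlotinib. The median of the first cluster was the lower one in every 72 h library, as the choice of the extremes makes likely. Single guides varied within both, with an SD of 0.164 to 0.227 in the first and 0.115 to 0.129 in the second.

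Cluster medians of the replicates were more alike than values of single guides. With each replicate set against its own T0 library, the 17 cluster medians of replicate 1 and replicate 2 had r = 0.92 (Spearman's rho 0.917) in untreated, 0.845 under erlotinib and 0.82 under osimertinib. For 313 receptor genes r was 0.429, 0.45 and 0.517, and for 1235 guides it was 0.34, 0.326 and 0.319. For the 138 non-targeting guides, which have no genomic position, r was -0.0885, 0.0802 and -0.033. These are descriptions across clusters, genes or guides, which share libraries and differ in how many reads they pool.

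Genes near the clusters that are not olfactory receptors had similar values. For each cluster these were the other genes inside it and the 10 next measured genes on each side, 16 to 59 genes in all. Across the 17 clusters, the receptor median and the median of the neighbours had r = 0.621 (rho 0.547) in untreated against T0, 0.779 (0.716) in erlotinib against T0 and 0.806 (0.86) in osimertinib against T0. The lowest cluster, OR4B1 to OR4A47, had neighbours at -0.29, and the highest, OR6X1 to OR8A1, had neighbours at -0.06. The cluster from OR4C46 to OR5AK2 departed from this, at -0.08 with neighbours at -0.29, but 19 of its 20 neighbours are also neighbours of the cluster from OR4B1 to OR4A47. Copy number of these regions was not measured here, and its part in these values was not tested.

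Class I receptors were lower than class II without drug. The 51 class I genes (187 guides) had a median of -0.18 from T0 to untreated and the 286 class II genes (1048 guides) -0.12. In single libraries class I was at -0.15 and -0.16 in untreated, -0.14 and -0.10 under osimertinib, and -0.12 and -0.08 under erlotinib. Class II was at -0.09 and -0.10 in untreated, -0.13 and -0.11 under osimertinib, and -0.14 and -0.11 under erlotinib. Class I was thus the lower one in both untreated libraries and the higher one in both erlotinib libraries, while the osimertinib libraries were split. All 51 class I genes lie in 1 cluster of 63 genes, OR52B4 to OR10A3 on chromosome 11, which was at -0.17 in untreated and -0.10 with either drug, each against T0. The 12 class II genes of that cluster (44 guides) were at -0.10 in untreated, -0.10 with erlotinib and -0.12 with osimertinib, each against T0. In single libraries they were at -0.12 and -0.11 in untreated, -0.09 and -0.12 under osimertinib, and -0.14 and -0.07 under erlotinib, so they stood above class I in both untreated libraries and on either side of it under each drug. No class I gene lies elsewhere, so a class I value away from this cluster could not be had.

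Drug hardly changed the shift of the olfactory receptor guides as a set at 72 h. The paper reports that both drugs slow the proliferation of PC9 cells and kill part of them. The groups were thus compared at equal hours and not at equal divisions, and a shift per division was not measured. Erlotinib differed from untreated by -0.01 in the library means (single pairs of libraries between -0.0272 and 0.00404, exact permutation p = 0.667, 2 against 2). Osimertinib differed by -0.01 (between -0.029 and -0.00039, exact permutation p = 0.333, the smallest possible for 2 against 2). With the libraries of both drugs pooled, the difference was -0.01 (exact permutation p = 0.267, 4 against 2 libraries). In the fit across guides the medians were -0.02 for erlotinib and -0.01 for osimertinib against untreated, and the means were -0.01 ± 0.01 and 0.00 ± 0.01 (SE from the spread between guides). The shift seen from T0 to 72 h was larger than any of these pairwise differences, and 2 libraries against 2 cannot reach a p of 0.05 whatever their values.

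Few receptor guides changed between drug and untreated. With erlotinib against untreated, 6 olfactory receptor guides fell (0.486%) and 8 rose (0.648%), where 0.934% and 1.89% of all guides did. With osimertinib against untreated, 19 fell (1.54%) and 14 rose (1.13%), where 2.13% and 2.65% of all guides did. The non-targeting guides had 2 called higher with osimertinib. On the gene level, erlotinib against untreated gave 17 receptor genes that fell (5.21%) and 7 that rose (2.15%), where 4.47% and 6.57% of all genes did. Osimertinib against untreated gave 26 that fell (7.98%) and 8 that rose (2.45%), where 7.89% and 9.01% of all genes did. The shares of receptor genes that fell were close to those of all genes and the shares that rose were below them, and neither difference was tested. Between the drugs directly, at unequal doses, 3 receptor guides were lower with erlotinib than with osimertinib, where 0.11% of all guides were lower and 0.215% higher, and 3 receptor genes were lower (0.92%) and 2 higher (0.613%), where 1.15% and 1.95% of all genes were.

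The receptor genes that fell with drug lay mostly side by side. Of the 17 that fell with erlotinib against untreated, 13 were among the 61 tested genes of 2 clusters on chromosome 11, OR4C46 to OR5AK2 and OR9Q1 to OR10V1, and 4 were among the 265 other tested genes. With osimertinib the counts were 20 and 6. Of all genes, 4.47% fell with erlotinib and 7.89% with osimertinib against untreated. The gene value was below 0 for 53 of the 61 genes with erlotinib and for 56 with osimertinib. Of single guides against genes that are not olfactory receptors, 48.8% and 47.9% lay below 0 in the same comparisons. The comparisons share the untreated libraries. These clusters too were picked after their values had been seen. Without untreated replicate 1 the counts in the 2 clusters were 6 with each drug, without untreated replicate 2 they were 7 and 11, and without erlotinib replicate 1 the erlotinib count was 2.

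The cluster from OR4C46 to OR5AK2 (43 genes, 156 guides) was at -0.05 and -0.07 in untreated, -0.17 in both osimertinib libraries, and -0.17 and -0.15 under erlotinib. The cluster from OR9Q1 to OR10V1 (20 genes, 69 guides) was at -0.11 and -0.12 in untreated, -0.26 and -0.27 under osimertinib, and -0.25 and -0.18 under erlotinib. In both, every drug library was below every untreated library. Neighbours of the cluster from OR9Q1 to OR10V1 that are not olfactory receptors went the same way, by -0.14 with either drug against untreated, beside -0.11 and -0.13 for the receptors. Those of the cluster from OR4C46 to OR5AK2 went less far, by -0.0441 with erlotinib and -0.0868 with osimertinib, beside -0.103 and -0.115 for the receptors.

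Other clusters went up, though not all of them in every pair of libraries. The cluster from OR13F1 to OR13D1 on chromosome 9 (7 genes) was at -0.14 and -0.15 in untreated, -0.04 in both osimertinib libraries, and -0.04 and -0.07 under erlotinib. Its median in the fit against untreated was 0.17 with osimertinib and 0.04 with erlotinib. Its shift within replicates, which is not the difference of these medians, was 0.12 and 0.18 for osimertinib. For erlotinib it was -0.03 in replicate 1 and 0.08 in replicate 2. The cluster from OR9K2 to OR10P1 on chromosome 12 (15 genes) was at -0.11 and -0.12 in untreated, -0.09 and -0.10 under osimertinib, and -0.07 and -0.06 under erlotinib. Its shifts within replicates were all above 0, at 0.00305 and 0.0687 for erlotinib and 0.027 and 0.0374 for osimertinib. The cluster from OR52B4 to OR10A3 on chromosome 11 (63 genes) was also up throughout, at 0.0269 and 0.0669 for erlotinib and 0.0414 and 0.0468 for osimertinib. Against untreated, neighbours of the chromosome 9 cluster were at -0.0266 with erlotinib and 0.0706 with osimertinib. Neighbours of the chromosome 12 cluster were at 0.052 and 0.00811, beside 0.0537 and 0.059 for its receptors. Over the 17 clusters, receptor and neighbour medians had r = 0.768 (rho 0.721) for erlotinib and 0.825 (rho 0.821) for osimertinib against untreated. With libraries used once each, the cluster shifts of osimertinib replicate 1 and replicate 2, each minus the untreated library of the same number, had r = 0.901 (rho 0.931), and those of erlotinib r = 0.32 (rho 0.355). Erlotinib replicate 2 against osimertinib replicate 1, with separate untreated libraries, had r = 0.718, and erlotinib replicate 1 against osimertinib replicate 2 had r = 0.433. The pattern was thus less alike between the erlotinib replicates.

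OR5D13 and OR5M8, both in the cluster from OR4C46 to OR5AK2, were the lowest single genes with erlotinib. OR5D13 was at -0.34 ± 0.17 (n = 4) with erlotinib against untreated, OR5M8 at -0.28 ± 0.08 (n = 4), OR10H4 at -0.27 ± 0.28 (n = 4) and OR5H14 at -0.26 ± 0.06 (n = 3). Of these, OR10H4 did not pass the edgeR gene test (adjusted p = 0.224), and the others did (adjusted p up to 0.0125). OR5D13 was at -0.07 and -0.16 in untreated, -0.37 and -0.39 under osimertinib, and -0.34 and -0.37 under erlotinib, with no overlap between drug and untreated. It was picked as the lowest gene against these untreated libraries, which makes such a gap likely. OR7E24 at 0.26 ± 0.34, OR56A4 at 0.22 ± 0.10, OR10J5 at 0.21 ± 0.27 and OR51I1 at 0.18 ± 0.07 (n = 4 each) were the highest, and of them OR7E24 passed the edgeR gene test (adjusted p = 0.0468).

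With osimertinib against untreated, the lowest were OR5M8 at -0.38 ± 0.15 (n = 4), OR2B6 at -0.31 ± 0.10 (n = 4), OR5AR1 at -0.29 ± 0.12 (n = 3) and OR5J2 at -0.28 ± 0.44 (n = 4), of which OR5AR1 did not pass the edgeR gene test (adjusted p = 0.102). OR5M8 was at 0.14 and 0.06 in untreated, -0.37 and -0.12 under osimertinib, and -0.28 and -0.01 under erlotinib. It was above the non-targeting guides without drug and below them with drug in every library, though its replicates under drug stood apart. OR5M8 was picked by its contrast with untreated and was also the highest gene from T0 to untreated. That choice makes such a split likely. The highest were OR13F1 at 0.35 ± 0.16, OR1D2 at 0.22 ± 0.25, OR51F2 at 0.21 ± 0.28 and OR52N5 at 0.21 ± 0.06 (n = 4 each), of which OR13F1 passed the edgeR gene test (adjusted p = 0.00879).

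Among single guides, TKOV3_42601 against OR52K1 was the lowest with erlotinib. It had 73 and 82 reads at T0, 90 and 113 in untreated, 100 and 110 under osimertinib, and 35 and 43 under erlotinib. Its L2FC against untreated was -1.21 at an adjusted p of 0.0071 (edgeR), while the other 2 guides of OR52K1 had -0.06 and 0.08. TKOV3_42964 against OR7E24, the highest with erlotinib, had 109 and 113 reads in untreated and 166 and 170 under erlotinib (L2FC 0.76, edgeR adjusted p = 0.0324). With osimertinib the lowest was TKOV3_42692 against OR5AU1, with 293 and 300 reads in untreated and 231 and 166 under osimertinib (L2FC -0.61, edgeR adjusted p = 0.0206), and the highest was TKOV3_41818 against OR10G3, with 36 and 37 against 63 and 86 reads (L2FC 0.99, edgeR adjusted p = 0.059). The other guides of these genes had -0.03 to 0.39 for OR7E24, -0.20 to 0.05 for OR5AU1 and -0.50 to 0.20 for OR10G3.

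Other lists of genes that are cut but not known to be needed in a lung cell mostly gave shifts of a similar size without drug. From T0 to untreated, bitter taste receptors had a median of -0.12 over 19 genes (6 fell by the edgeR gene test, where 52.8% of all genes did), hair keratin-associated proteins -0.11 over 49 (13 fell), the antimicrobial beta-defensins -0.13 over 19 (5 fell) and late cornified envelope proteins of the skin barrier -0.14 over 6 (2 fell). With erlotinib and osimertinib against T0, bitter taste receptors were at -0.07 and -0.07, keratin-associated proteins at -0.11 and -0.12, beta-defensins at -0.11 and -0.04, and late cornified envelope proteins at -0.13 and -0.10. Vomeronasal receptors, a pheromone receptor family, stood lower at -0.29 (3 genes, all of which fell), and the 2 interferon alpha genes tested stood at 0.00. These lists are also made of gene clusters.

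Genes that act on the break itself were looked at beside the controls, using 13 genes of end joining, damage signaling and cell cycle arrest. From T0 to untreated, 6 of the 13 fell by the edgeR gene test, where 52.8% of all genes did, and the median was -0.15 beside -0.17 for all genes. PRKDC, another gene of this pathway, was not analysed here. XRCC5 and XRCC6, which encode the Ku proteins that bind broken DNA ends and also guard telomeres, were lowest at -1.20 ± 0.27 and -1.01 ± 0.54 (n = 4 each). NHEJ1, an end joining factor, was at -0.34 ± 0.19, LIG4, the ligase of end joining, at -0.19 ± 0.11, and CDKN1A, a cell cycle inhibitor, at -0.22 ± 0.04 (n = 4 each), and all of these fell. XRCC4, the partner of LIG4, stood at 0.03 ± 0.19 (n = 3) and DCLRE1C, a nuclease of end joining, at -0.13 ± 0.05 (n = 4).

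The kinases ATM and CHEK2, which signal breaks, stood at -0.15 ± 0.09 and -0.04 ± 0.10, the ubiquitin ligase MDM2 and its partner MDM4 at -0.08 ± 0.09 and -0.05 ± 0.07, and USP28, a deubiquitinase, at -0.08 ± 0.20 (n = 4 each), and none of these 5 passed the edgeR gene test. Against untreated, NHEJ1 rose with erlotinib and with osimertinib, at 0.28 ± 0.10 and 0.12 ± 0.28, XRCC5 rose with erlotinib (0.44 ± 0.13), and USP28 rose with osimertinib (0.06 ± 0.30 at the guide median). These were 2 of the 13 genes with each drug, where 6.57% of all genes rose with erlotinib and 9.01% with osimertinib. From T0 to untreated, all but the Ku genes lay within the range of the olfactory receptor genes (-0.47 to 0.13).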

How the data were processed

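The deposited values are raw read counts per guide in 8 libraries. The labels and the methods state that the authors amplified guide inserts from genomic DNA by PCR, trimmed constant sequence and mapped reads to the library with a single mismatch allowed. The methods name Bowtie2 as the aligner, whereas the processing notes of the submitters name Bowtie 1.3.1. No molecular identifiers are mentioned, and PCR copies are not independent molecules, so precision from counts covers counting error only. Guide sequences were not analysed here, so guides that match several receptor copies, and may cut more than once, were not told apart.

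Guides in the lowest 5% by mean count (below 46.0 reads) were left out, which kept 67535. Counts of all 8 libraries were fitted with edgeR 4.0.16 (R 4.3.3; quasi-likelihood, 4 residual degrees of freedom, common dispersion 0.00539), with TMM factors from the non-targeting guides, and p-values were adjusted over all guides by Benjamini-Hochberg at 0.05. Genes with at least 2 kept guides were fitted on summed counts. Per-library values are log2 of CPM plus 1. Library differences used exact permutation tests. DESeq2 1.42.0, other scalings, filters, reference guides and samples were the alternatives. Named genes were, among receptor genes with at least 3 guides, the 8 lowest and 4 highest from T0 to untreated and the 4 lowest and 4 highest for each drug against untreated, with the lowest and highest guide of each, and the members of the break response list, of which some are not reported here. Members and lists were chosen with earlier results of these data known. RefSeq (GRCh38.p14) gave names, chromosomes and neighbours only.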

Additional observations from a re-analysis of the deposited data

Results flagged for a closer look

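Erlotinib and osimertinib differed directly, at unequal doses, in 5 receptor genes by the edgeR gene test (erlotinib minus osimertinib, log2 scale, reads summed over guides). OR13C4 was at -0.196, OR5H14 at -0.255 and OR6M1 at -0.194, which are lower with erlotinib, while OR52B4 was at 0.224 and OR7E24 at 0.217. Of the 326 receptor genes these are 0.92% lower and 0.613% higher, where 1.15% and 1.95% of all genes were. The OR5H14 call rests on 1 guide, TKOV3_42742 at -0.381, since the median over its 3 guides was 0.03. The other single guides that differed were TKOV3_42601 of OR52K1 at -1.23 and TKOV3_42900 of OR6M1 at -0.41.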

How the results depend on the processing

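The medians from T0 stayed below 0 under every alternative run, and those of drug against untreated changed sign under some. The scalings could not change these medians, since they move receptor and non-targeting guides by nearly the same amount. With EGFP guides as reference, the median was -0.0909 in untreated against T0, -0.0466 in erlotinib and -0.0259 in osimertinib against untreated, and with luciferase guides the last was 0.0105. Class I alone gave -0.185 in untreated and -0.104 in erlotinib against T0, and 0.0551 and 0.0337 for the drugs against untreated. Means over guides were -0.135 in untreated and -0.139 in osimertinib against T0, and the plain log2 CPM difference gave -0.114 in untreated. A split of guides by T0 reads (at 496 and 699) was added after seeing the data. Guides with the fewest reads gave -0.144 in untreated against T0 and 0.0512 and 0.0261 for erlotinib and osimertinib against untreated, guides in between -0.154 and -0.14 for erlotinib and osimertinib against T0 and -0.0291 for osimertinib against untreated, and guides with the most reads -0.0894 in untreated against T0. Leaving out the lowest cluster, also added, changed no median beyond the spread between libraries.

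Counts of receptor guides called lower and higher with TMM over all guides were 12 and 24 in untreated, 25 and 12 in erlotinib and 44 and 51 in osimertinib against T0, with 10 lower in erlotinib against untreated, and receptor genes called lower were 7, 19 and 27 against T0. DESeq2 gave 9 and 15, 13 and 8, and 31 and 26 guides and 4, 14 and 22 genes, with 3 guides higher in erlotinib and 10 lower and 1 higher in osimertinib against untreated. In both, the all-guide scaling sets non-targeting guides above 0. DESeq2 scaled on non-targeting guides gave 1 guide higher in osimertinib against T0, 3 higher in erlotinib against untreated, and 8 guides lower, 1 higher and 13 genes lower in osimertinib against untreated. With at least 200 reads, 1 guide was higher in erlotinib against T0. With only the 4 libraries compared, guides called higher were 4, 2 and 4 in untreated, erlotinib and osimertinib against T0, 11 guides were lower in erlotinib against untreated, and 7 guides lower, 1 higher and 10 genes lower in osimertinib against untreated. The cause was not tested.

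Without 1 replicate, the medians ranged from -0.127 to -0.112 in untreated, -0.141 to -0.115 in erlotinib and -0.143 to -0.112 in osimertinib against T0, and from -0.035 to 0.00237 and -0.0349 to 0.0191 for the drugs against untreated. Guides called lower ranged over 50 to 235, 64 to 239 and 89 to 211 against T0, and 1 to 15 and 5 to 20 against untreated. Guides called higher ranged over 0 to 1, 0 to 1 and 0 to 9 against T0, and 0 to 18 and 2 to 21 against untreated. Genes called lower ranged over 66 to 172, 85 to 189 and 92 to 147 against T0, and 3 to 21 and 9 to 25 against untreated. In untreated against T0, guides called lower came to 81 and 50 without T0 replicate 1 and 2, 86 and 74 without untreated replicate 1 and 2, and 235 without either osimertinib replicate.

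Same-numbered libraries did not deviate together (r from -0.0367 to 0.0509), so the numbers do not pair the samples. With a replicate block, receptor guides called lower were 157, 172 and 197 against T0 and 7 and 19 against untreated, and the medians were -0.124, -0.126 and -0.113 against T0. Leaving out receptors with near-identical proteins was not run.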
